A study of Mus musculus with 6 samples.

Results

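The visual cycle and retinoid handling genes described here are 9 of the 24062 genes counted in the series: Rpe65, Rlbp1, Lrat, Rdh5, Rdh8, Rdh12, Abca4, Rbp3 and Stra6. They were taken by gene symbol as genes of the visual cycle, with earlier results of these data known, and all 9 passed the filter on low counts that left 16904 genes for testing. RNA-seq libraries had been made from whole retinae of mice at postnatal day 21, labelled C57BL/6 and kept on a C57BL/6N background per the study's methods, with 1 library for each of 3 Chx10-Cre Rb1/p107 double knockout (DKO) and 3 Chx10-Cre Rb1/p107/Hells triple knockout (TKO) retinae. Both groups carry Chx10-Cre, floxed Rb1 and a germline p107 deletion, and in the TKO mice both Hells alleles are floxed as well. Hells encodes a chromatin remodeling protein of the SNF2 family, and the comparison asks which transcripts differ in a tumor-prone retina when Hells is also lost. Chx10-Cre acts in retinal progenitors in a mosaic pattern, so a library also holds RNA from cells that kept the floxed alleles. There was no wild-type retina in the comparison.

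The visual cycle returns all-trans retinal, the product of light absorption by opsins, to the 11-cis form that opsins need. Photoreceptors clear and reduce all-trans retinal, the retinal pigment epithelium (RPE) esterifies and isomerizes the retinol, and binding proteins carry retinoids within and between the cells. Müller glia, the radial glia of the retina, also bind 11-cis retinoids. Rods, the most abundant cells of the mouse retina, rely on the 11-cis retinoid that the RPE makes.

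The counts summed to 12083082, 12888233 and 10343907 in TKO retinae 1, 2 and 3, and to 12635061, 13455972 and 14203098 in DKO retinae 1, 2 and 3. Values are normalized counts, that is, counts divided by the library's TMM-scaled size relative to the mean size, unless a level per length is named. Hells itself had 60.8, 68.4 and 83.4 normalized counts in the TKO retinae and 678, 523 and 395 in the DKO retinae (log2 fold change -2.91, standard error 0.225, adjusted p = 0.00359, edgeR quasi-likelihood test), so each library followed its label. TKO retina 2 stood apart in lens genes: the 9 lens markers summed to 3472 normalized counts there, to 627 and 522 in TKO retinae 1 and 3, and to between 113 and 121 in the DKO retinae. DKO retina 1 had the lowest sum of RPE markers, 673 normalized counts against 1455 and 1604 in DKO retinae 2 and 3. Tests of the visual cycle genes known from the RPE are therefore also given without TKO retina 2 and without DKO retina 1.

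Of the 9 genes, 6 were higher in TKO retinae by the criteria of an adjusted p of at most 0.05, a log2 fold change of at least 1 in size and a mean of at least 10 normalized counts (edgeR). They were Rpe65, Rdh8, Rdh12, Abca4, Rbp3 and Stra6, and 0 of the 9 were lower, also with DESeq2 or at an unadjusted p of at most 0.05. Among all genes tested, 1.97% were higher and 4.38% were lower by the same criteria. With the adjusted p alone, Rlbp1 was added, which made 7 of 9 genes higher and 0 lower, against 7.35% and 9.2% of all genes. The fitted log2 fold change was above 0 for all 9 genes, with a median of 1.57, where the median over all genes tested was -0.011. In 7 of the 9 genes every TKO retina lay above every DKO retina, which held for 18% of all genes, and in Lrat and Rdh5 the groups overlapped. In bulk retina, fewer cells of a type and less RNA per cell cannot be told apart. The number of genes called depended on single retinae, being 3 without TKO retina 1, 3 without TKO retina 2, 3 without DKO retina 1 and 2 without DKO retina 2, and 6 and 7 without TKO retina 3 and DKO retina 3.

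**Figure D1:**
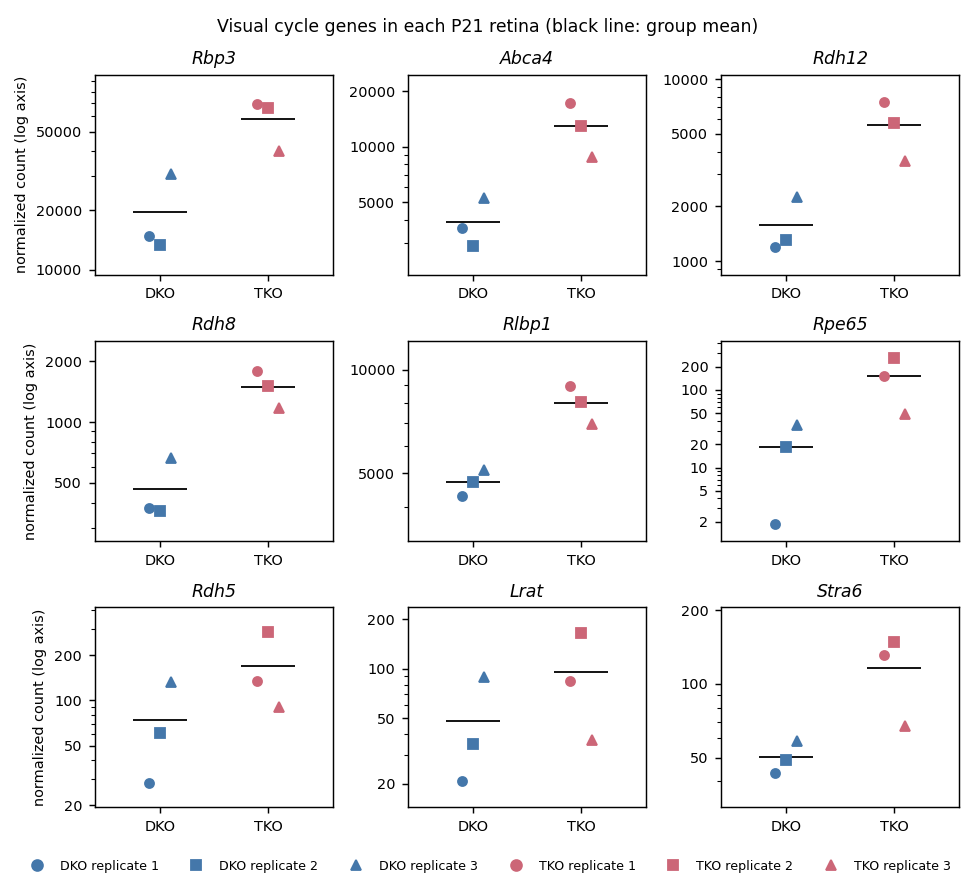
Normalized counts of the 9 visual cycle genes (log axis) in each DKO and TKO retina, with the group mean as a black line and the replicate number as the marker shape. The groups are separated in 7 genes and overlap in Rdh5 and Lrat, and in every gene the triangles (replicate 3 of each genotype) lie nearest to the other group.

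Rbp3, Abca4, Rdh8 and Rdh12, the 4 genes known to be expressed in photoreceptors, were all higher in TKO retinae, between 2.97-fold and 3.52-fold by the fit. Rbp3 encodes the interphotoreceptor retinoid-binding protein, which carries retinoids across the space between photoreceptors and RPE (chromosome 14, 33954003 to 33964216, plus strand of GRCm38). It had 69149.9, 66030.2 and 39867 normalized counts in TKO retinae 1, 2 and 3, and 14869.8, 13358 and 30687 in DKO retinae 1, 2 and 3. The groups did not overlap, and DKO retina 3 had more than double the count of each of the other two. The log2 fold change was 1.57 (standard error 0.342, adjusted p = 0.0193, edgeR). The adjusted p of Rbp3 was over 0.05 without TKO retina 1 (0.0573), TKO retina 2 (0.0741), DKO retina 1 (0.0803) or DKO retina 2 (0.0781). Abca4 encodes the flippase of outer segment discs that moves retinal conjugated to phosphatidylethanolamine to the cytosol, where it can be reduced (chromosome 3, 122044443 to 122180123, plus strand). Its normalized counts were 17285, 12960.4 and 8752 in TKO retinae and 3608, 2875 and 5256 in DKO retinae. All TKO retinae were above all DKO retinae, and the log2 fold change was 1.73 (standard error 0.284, adjusted p = 0.00883, edgeR).

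Rdh8 and Rdh12 encode the retinol dehydrogenases of photoreceptor outer and inner segments, which reduce all-trans retinal to retinol. Rdh8 (chromosome 9, 20818503 to 20826117, plus strand) had 1795, 1517 and 1176 normalized counts in TKO retinae and 376, 363 and 665 in DKO retinae. Rdh12 (chromosome 12, 79208914 to 79222665, plus strand) had 7441, 5768 and 3528 in TKO retinae and 1201, 1309.7 and 2242 in DKO retinae. In both genes TKO retinae 1 and 2 were the highest and DKO retinae 1 and 2 the lowest, without overlap between the groups. The log2 fold changes were 1.68 for Rdh8 (standard error 0.248, adjusted p = 0.00733) and 1.82 for Rdh12 (standard error 0.310, adjusted p = 0.00997) in edgeR's test. Abca4 and Rdh8 kept an adjusted p of at most 0.05 with each retina left out in turn (at most 0.0465 and 0.0399), while Rdh12 reached 0.051 without DKO retina 2.

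The 4 photoreceptor genes were next compared with rod markers in the same libraries. All 12 rod markers were called higher, their log2 fold changes running from 1.45 to 2.08 around a median of 1.74. The log2 count of each visual cycle gene was therefore taken relative to the mean log2 count of the rod markers of its own library. On this scale the TKO mean minus the DKO mean was -0.046 for Abca4, -0.14 for Rbp3, -0.057 for Rdh8 and 0.039 for Rdh12, while the rod markers themselves differed by 1.77. Rbp3 was at -0.22 without DKO retina 2 and at -0.046 without DKO retina 3. The groups overlapped in all 4 genes, and exact permutation tests (two-sided, 3 retinae against 3) gave p = 0.8, 0.4, 0.7 and 0.7. Single TKO and DKO retinae differed by between -0.38 and 0.16 for Abca4, between -0.41 and 0.092 for Rbp3, between -0.21 and 0.19 for Rdh8, and between -0.076 and 0.19 for Rdh12. The sign turned with single retinae left out: Abca4 was at 0.0099 without TKO retina 2 and at 0.062 without DKO retina 1, Rdh8 at 0.0041 without TKO retina 2, and Rdh12 at -0.011 without TKO retina 1. For cone markers the median log2 fold change was 0.83, and 2 of 10 were called higher: the short-wavelength opsin Opn1sw (1.24, adjusted p = 0.0467) and cone arrestin Arr3 (1.14, adjusted p = 0.0279, edgeR). The groups were separate in Arr3 but overlapped in Opn1sw, with TKO retina 3 at 1578 and DKO retina 3 at 1740 normalized counts. DESeq2 called 1 of the 10. All 10 were fitted above 0 with edgeR, 3 were higher by the adjusted p alone, and 9 were higher at an unadjusted p of at most 0.05.

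**Figure D2:**
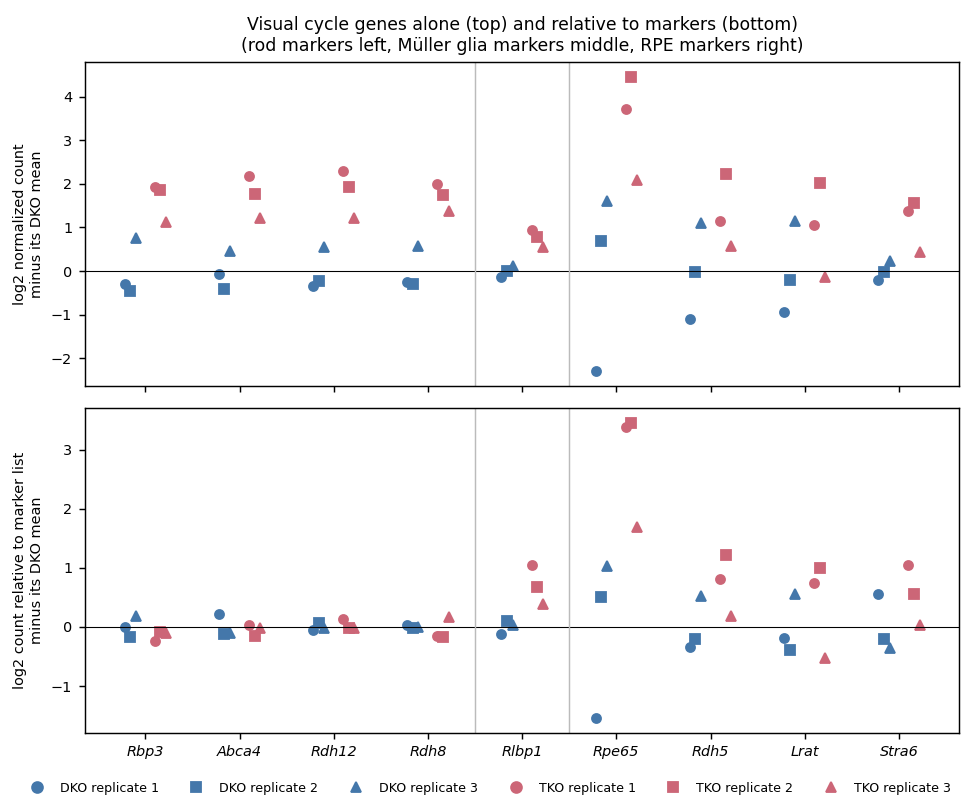
Log2 normalized count of each visual cycle gene minus its DKO mean (top) and the same after subtracting the mean of a marker list in each library (bottom), for the 3 DKO and 3 TKO retinae. The lists are rod markers for Rbp3, Abca4, Rdh12 and Rdh8, Müller glia markers for Rlbp1 and RPE markers for Rpe65, Rdh5, Lrat and Stra6. After subtraction the points of the 4 genes on the left lie near 0 in both groups, while those of Rlbp1 and Rpe65 remain apart.

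The sequences before the start sites are shown for the called genes with 1 RefSeq window. They set the photoreceptor genes, which moved together, beside Rpe65, in which the order of the retinae differed. They come from the RefSeq promoter table of GRCm38.p6, in which all 9 genes were found, and each run ends at the last base before an annotated exon (17 bases before the RefSeq start in Abca4, 6 bases before it in Rpe65). Capitals mark matches to TAATCC, the core site of the photoreceptor factor CRX and the related OTX2, or to TGCTGA, a core of the site of the rod factor NRL, on either strand. The runs are chr3:122044260-122044442 for Abca4, chr14:33953803-33954002 for Rbp3, chr9:20818294-20818493 for Rdh8, chr12:79208713-79208912 for Rdh12 and chr3:159598981-159599174 for Rpe65, all on the plus strand.
Abca4: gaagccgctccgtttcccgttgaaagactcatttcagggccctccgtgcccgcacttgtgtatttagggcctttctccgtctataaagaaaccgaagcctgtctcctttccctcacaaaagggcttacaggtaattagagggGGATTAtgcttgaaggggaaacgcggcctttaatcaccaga
Rbp3: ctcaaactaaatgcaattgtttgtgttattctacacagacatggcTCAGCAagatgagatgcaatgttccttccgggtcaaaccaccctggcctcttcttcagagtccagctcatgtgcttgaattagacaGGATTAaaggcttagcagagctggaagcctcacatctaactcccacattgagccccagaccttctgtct
Rdh8: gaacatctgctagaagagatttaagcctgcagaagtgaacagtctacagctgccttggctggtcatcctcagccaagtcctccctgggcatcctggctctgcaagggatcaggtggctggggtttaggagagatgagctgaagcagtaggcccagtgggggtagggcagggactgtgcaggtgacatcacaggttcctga
Rdh12: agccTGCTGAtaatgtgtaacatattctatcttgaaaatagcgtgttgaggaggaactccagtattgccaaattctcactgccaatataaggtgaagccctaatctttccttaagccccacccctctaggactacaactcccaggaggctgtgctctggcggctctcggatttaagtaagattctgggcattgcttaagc
Rpe65: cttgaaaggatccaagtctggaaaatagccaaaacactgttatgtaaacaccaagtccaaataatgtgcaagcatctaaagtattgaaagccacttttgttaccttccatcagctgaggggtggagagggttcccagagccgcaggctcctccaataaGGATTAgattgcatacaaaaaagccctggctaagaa

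In the 250 bases before the start, TAATCC occurred once each in Abca4, Rbp3 and Rpe65, in each case on the opposite strand (GGATTA in the runs above), and began 58, 69 and 42 bases before the start. It was not found in the windows of the other 6 genes, and 6.25% of the 32851 RefSeq windows hold it. TGCTGA was found in Rbp3, Rdh12, Rlbp1 and 1 of the 4 windows of Stra6, and in 16.1% of all windows. The pattern TCANGTG, with any base in the middle, takes in boxes of the RPE and pigment cell factor MITF among other sequences. It was found in Abca4, Rbp3 and Rdh8, and in 12.2% of all windows. The match read TCATGTG in Rbp3 and TCAGGTG in both Rdh8 and Abca4 (opposite strand). Binding of MITF to these matches was not tested. TTCCCGCC, a site of the E2F factors that RB proteins restrain, was found in none of the 9 genes and in 1.86% of all windows. No match to 1 motif overlapped a match to another. Rdh8, with neither TAATCC nor TGCTGA in its window, and Abca4, with TAATCC, had the most similar profiles of any pair among the 9 genes.

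Rlbp1 encodes CRALBP, the binding protein for 11-cis retinoids in RPE and Müller glia (chromosome 7, 79374870 to 79387048, minus strand). It had 8980.3, 8054 and 6951 normalized counts in TKO retinae and 4292, 4734 and 5120.0 in DKO retinae. The groups did not overlap, and the spread within each group was the narrowest of the 9 genes on the log scale. The log2 fold change was 0.76, or 1.70-fold (standard error 0.121, adjusted p = 0.00821, edgeR), so that Rlbp1 passed the test but not the minimum fold change, and its adjusted p was at most 0.0438 with each retina left out. Relative to 12 Müller glia markers, Rlbp1 was higher in TKO retinae by 0.70 on the log2 scale, with single pairs of retinae between 0.29 and 1.17 (exact permutation test, two-sided, p = 0.1, the smallest that 3 against 3 allows). For the Müller glia markers the median log2 fold change was -0.0019, with 4 higher and 2 lower by the adjusted p. Glul, the glutamine synthetase of these glia, was higher (1.15, adjusted p = 0.0055), as were Car14 (0.82, adjusted p = 0.0046), Abca8a (0.58, adjusted p = 0.0149) and the potassium channel gene Kcnj10 (0.45, adjusted p = 0.0176). The transcription factor Sox9 (-1.02, adjusted p = 0.0155) and the lipid carrier Apoe (-0.90, adjusted p = 0.0466, edgeR) were lower. Their part in the Rlbp1 difference was not tested.

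Rpe65 encodes the retinoid isomerase of the RPE (chromosome 3, 159599175 to 159625321, plus strand) and had the largest fold change of the 9 genes, on low counts. It was counted 134, 245 and 40 times in TKO retinae and 2, 21 and 41 times in DKO retinae, or 154, 258 and 49.1 against 1.88, 18.4 and 35.4 normalized counts. The groups did not overlap after normalization, but TKO retina 3 and DKO retina 3 were close, and the DKO retinae alone spanned from 1.88 to 35.4. The log2 fold change was 3.03, or 8.16-fold (standard error 0.770, adjusted p = 0.0324, edgeR). Without TKO retina 2, the library with the most lens RNA, it was 2.43 (adjusted p = 0.119), and without DKO retina 1, the library with the fewest RPE marker counts, it was 2.51 (adjusted p = 0.075). The adjusted p was also over 0.05 without TKO retina 1 (0.0731) or DKO retina 2 (0.115), and 0.0817 with robust dispersion estimates. The log2 fold change rose to 3.45 without TKO retina 3 (adjusted p = 0.00912) and to 3.88 without DKO retina 3 (adjusted p = 0.0211, edgeR).

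Stra6 encodes the membrane receptor through which the RPE takes up retinol from retinol-binding protein (chromosome 9, 58063788 to 58153996, plus strand). It had 131, 148 and 67.5 normalized counts in TKO retinae and 43.3, 49.0 and 58.7 in DKO retinae. TKO retina 3 lay just above the highest DKO retina, and the log2 fold change was 1.20 (standard error 0.301, adjusted p = 0.0311, edgeR). The adjusted p of Stra6 was over 0.05 without TKO retina 1 (0.0928), TKO retina 2 (0.118, log2 fold change 0.98), DKO retina 1 (0.108, log2 fold change 1.10) or DKO retina 2 (0.108). The gene overlaps Ccdc33 on the opposite strand over 55036 bp, and Ccdc33 had between 1 and 7 counts in any library.

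Lrat and Rdh5 did not pass the test. Lrat encodes lecithin retinol acyltransferase, which makes the retinyl esters that RPE65 uses (chromosome 3, 82892579 to 82903973, minus strand). It had 84.9, 164 and 36.8 normalized counts in TKO retinae and 20.7, 35.0 and 89.8 in DKO retinae. DKO retina 3 was thus above TKO retinae 1 and 3, and the log2 fold change was 0.97 (standard error 0.614, adjusted p = 0.304, edgeR). Rdh5 encodes the RPE enzyme that oxidizes 11-cis retinol to 11-cis retinal (chromosome 10, 128913593 to 128922888, minus strand), and had 135, 285 and 90.8 normalized counts in TKO retinae and 28.2, 60.4 and 132 in DKO retinae. The groups overlapped through DKO retina 3, and the log2 fold change was 1.21 (standard error 0.561, adjusted p = 0.171). Without TKO retina 2 the log2 fold change was 0.33 for Lrat (adjusted p = 0.783) and 0.62 for Rdh5 (adjusted p = 0.523), and without DKO retina 1 it was 0.62 for Lrat (adjusted p = 0.569) and 0.83 for Rdh5 (adjusted p = 0.354). Without TKO retina 3 it was 1.36 for Lrat (adjusted p = 0.118) and 1.51 for Rdh5 (adjusted p = 0.0893), and without DKO retina 3 it was 1.77 for Lrat (adjusted p = 0.0756). Rdh5 passed the test only without DKO retina 3 among the alternatives run (log2 fold change 1.94, adjusted p = 0.0404). Rdh5 shares 5007 bp with Bloc1s1 on the same strand, and Bloc1s1 was at 398, 459.9 and 378 normalized counts in TKO retinae and 361, 371 and 418 in DKO retinae. Lrat lies wholly within the antisense gene Rbm46os, which had 1 count in a single library.

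RPE markers were examined beside these 4 genes, because the tissue was labelled retina and the RPE adjoins it. Of 15 RPE markers, 1 was called higher (the transporter Slc6a20a, log2 fold change 1.95, adjusted p = 0.038) and 0 were lower, with a median of 0.30 and 11 of 15 fitted above 0. The list summed to 1521, 1921 and 1771 normalized counts in TKO retinae and 673, 1455 and 1604 in DKO retinae, with the largest part from Krt18, a keratin that is not specific to the RPE. The pigment genes differed among themselves: Tyr, the tyrosinase gene, had 36.7, 50.5 and 45.4 normalized counts in TKO retinae and 10.4, 25.4 and 30.2 in DKO retinae, without overlap (log2 fold change 1.00, adjusted p = 0.109, edgeR), while Tyrp1, Dct, Pmel and Mlana ranged from -0.11 to 0.41 (adjusted p from 0.418 to 0.944). Tspan10 (1.01, adjusted p = 0.141) also had groups that did not overlap, and Krt8 (1.67, adjusted p = 0.199) and the RPE channel gene Best1 (-0.033, adjusted p = 0.966) had groups that did. All 15 markers had counts in every library. Relative to the mean of the list, Rpe65 was higher in TKO retinae by 2.84 on the log2 scale without overlap (exact permutation test, two-sided, p = 0.1, the smallest possible), with single pairs between 0.65 and 4.99. Rdh5, Stra6 and Lrat differed by 0.73, 0.55 and 0.41 on this scale, with overlapping groups (exact permutation p = 0.2, 0.3 and 0.5). Without TKO retina 2 these differences were 2.54 for Rpe65, 0.50 for Rdh5, 0.54 for Stra6 and 0.11 for Lrat, and without DKO retina 1 they were 2.07, 0.57, 0.83 and 0.32. With each of the 6 retinae left out in turn they ranged from 2.07 to 3.42 for Rpe65, from 0.50 to 1.01 for Rdh5, from 0.29 (without TKO retina 1) to 0.83 for Stra6 and from 0.11 to 0.87 for Lrat. In all, 9 genes were compared with a marker list in this way. With Benjamini-Hochberg adjustment over the 9, the exact permutation p was 0.45 for Rpe65 and Rlbp1. It ran from 0.6 for Rdh5 to 0.8 for Abca4 in the other genes.

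Rpe65, Rdh5, Lrat and Stra6 had their highest TKO value in retina 2 and their lowest DKO value in retina 1. The same held for Ttr and Rgr, genes of a retinol carrier complex and of an RPE and Müller glia opsin. Ttr had 696, 1417 and 281 normalized counts in TKO retinae and 53.6, 411 and 549 in DKO retinae (log2 fold change 1.24, adjusted p = 0.277), and Rgr had 385, 686 and 125 against 23.5, 145 and 237 (1.56, adjusted p = 0.180, edgeR). In both genes DKO retina 3 exceeded TKO retina 3. Of the 9 lens markers 4 were called higher, all crystallin genes, and Cryaa, the most abundant, had 299, 1464 and 218 normalized counts in TKO retinae and 11.3, 5.25 and 14.7 in DKO retinae. The lens fiber genes Mip, Bfsp1 and Bfsp2 had overlapping groups (log2 fold changes from 0.24 to 0.48, adjusted p from 0.487 to 0.769) and were highest in TKO retina 2, at 62.1, 55.8 and 55.8 normalized counts. Lim2, another lens fiber gene, was at 0, 49.5 and 2.45 normalized counts in TKO retinae and at 0 in all DKO retinae (adjusted p = 0.112), and Birc7 was lower by the adjusted p alone (-2.21, adjusted p = 0.0303, edgeR). Tissue at the border of the dissected retina was not measured, and the part of lens or RPE RNA in the differences of the 4 genes was not tested.

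**Figure D3:**
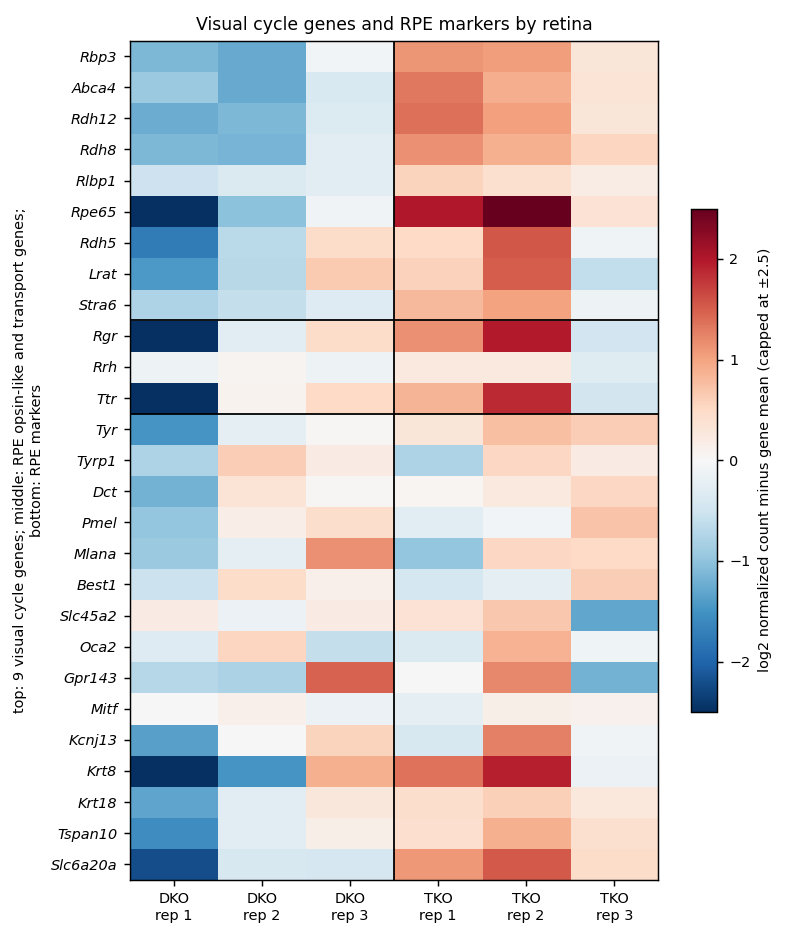
Log2 normalized count minus the gene's mean over the 6 retinae (color, limited to ±2.5) for the 9 visual cycle genes (top), Rgr, Rrh and Ttr (middle) and 15 RPE markers (bottom), with a column for each DKO and TKO retina. Rpe65, Rdh5, Lrat, Stra6, Rgr and Ttr are highest in TKO retina 2 and lowest in DKO retina 1, while the RPE markers vary, with separate groups in Tyr, Tspan10 and Slc6a20a and overlapping groups in the other 12.

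The third retina of each genotype held the same place in all 9 genes. TKO retina 3 was the lowest TKO library and DKO retina 3 the highest DKO library in 9 of 9 genes, and in 16.6% of all genes tested. The highest TKO library was retina 1 in 5 genes (Rbp3, Abca4, Rdh8, Rdh12 and Rlbp1) and retina 2 in the other 4. Rod markers followed the same order, with sums of 792889, 683102 and 395485 normalized counts in TKO retinae and 139385, 135836 and 258168 in DKO retinae.

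Levels between genes were compared per length of exon, as normalized counts per kb per 1000000 counts. In DKO retinae Rbp3 was highest at 293 ± 143 (SD, n = 3), followed by Rlbp1 at 126 ± 11.1, Rdh12 at 42.2 ± 15.3, Rdh8 at 26.3 ± 9.60 and Abca4 at 25.7 ± 8.02. The other 4 genes were far lower, with Rdh5 at 2.07 ± 1.50, Rpe65 at 0.759 ± 0.685, Lrat at 0.717 ± 0.539 and Stra6 at 0.683 ± 0.106. Rdh8 and Abca4 did not differ beyond their spread, nor did Rpe65, Lrat and Stra6. In TKO retinae the first 3 places were the same, with Rbp3 at 871 ± 240.1, Rlbp1 at 214 ± 27.2 and Rdh12 at 149 ± 52.3, the ranges of Rlbp1 and Rdh12 overlapping. Abca4 (85.5 ± 28.1) and Rdh8 (84.2 ± 17.4) were again alike within their spread, and Rpe65 (6.28 ± 4.27) stood beside Rdh5 (4.80 ± 2.87). The RPE genes thus remained at least an order of magnitude below the photoreceptor genes in mean level in both genotypes.

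**Figure D4:**
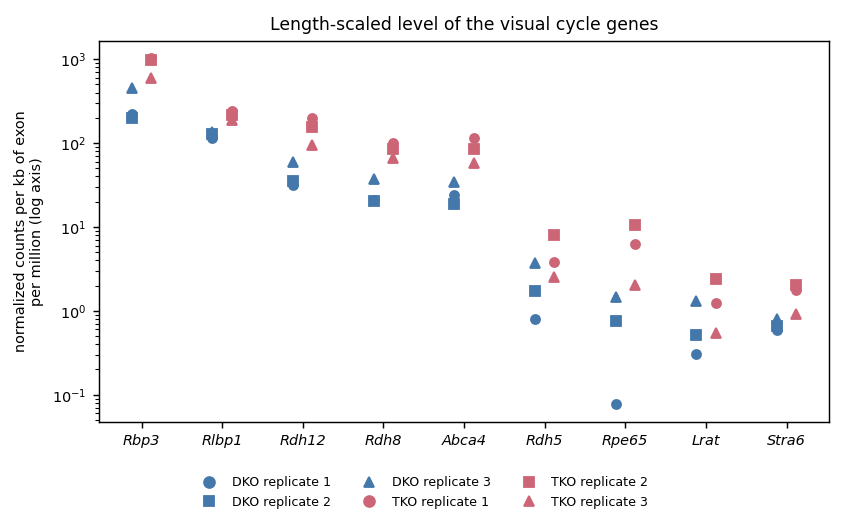
Level of the 9 visual cycle genes per length of exon (normalized counts per kb per 1000000 counts, log axis) in each DKO and TKO retina, in the order of their DKO means. Rbp3 is highest in both genotypes, and Rdh5, Rpe65, Lrat and Stra6 form a lower group.

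The likeness of profiles was measured as the root mean square difference between log2 normalized counts over the 6 retinae, each gene centred on its own mean, and is a description with no test. The 4 photoreceptor genes were the closest of all pairs, from 0.142 for Rdh8 and Abca4 to 0.184 for Abca4 and Rbp3. Lrat and Rdh5 followed at 0.270, and Rpe65 and Rlbp1 were the farthest apart at 1.84. Among 11564 other genes, the nearest to Rdh8 were Fam160a1 (0.056), the photoreceptor kinase gene Grk1 (0.0617) and Cabp4, a calcium-binding protein of photoreceptor synapses (0.0798). The nearest to Rdh12 were LOC102308570 (0.0515), Pde6g (0.0772), a subunit of the rod phosphodiesterase, and Slc24a1 (0.0901), the rod sodium, calcium and potassium exchanger. Abca4 lay nearest to Wdr17 (0.0626), the retinal guanylate cyclase gene Gucy2f (0.0655) and Wdr89 (0.0781). Rbp3 lay nearest to Impg1 (0.0558), which encodes a proteoglycan of the interphotoreceptor matrix, Tulp1 (0.0753) and Fabp12 (0.0868). For Stra6 the nearest were Faim (0.113), Tma7 (0.117) and Glo1 (0.129). No gene outside the lists was that near to Rpe65, for which Gm4792 (1.05), Uckl1os (1.21) and Esrrb (1.28) came first among them. Genes of the lists, such as Rgr and Ttr, were left out of this search.

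Few other genes of retinoid metabolism were called. Of 13 further retinoid dehydrogenases and reductases, 11 could be tested, 0 were called by all criteria with edgeR or DESeq2, and the median log2 fold change was 0.19. At an unadjusted p of at most 0.05, 2 were higher and 3 lower. With the adjusted p alone, 2 were higher, namely Dhrs3 (0.84, adjusted p = 0.0047), which reduces all-trans retinal, and Rdh11 (0.54, adjusted p = 0.0214), and Dhrs4 was lower (-0.50, adjusted p = 0.0321, edgeR). Dhrs3 had 873, 901 and 868 normalized counts in TKO retinae and 441, 502 and 529 in DKO retinae, with little spread in either group. Rdh10, the most abundant of this list, had 581, 779.9 and 917 in TKO retinae and 842, 1311 and 1007 in DKO retinae, which overlapped (-0.47, adjusted p = 0.135).

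Of 14 genes of retinoid binding, transport and storage, 13 could be tested, 0 were called with edgeR or DESeq2 (2 higher and 2 lower at an unadjusted p of at most 0.05), and the median log2 fold change was 0.15. Scarb1, a scavenger receptor for lipids and carotenoids, was higher by the adjusted p alone (0.66, adjusted p = 0.0225, edgeR). Degs1, an abundant desaturase of the same list, did not pass (0.083, adjusted p = 0.552).

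For genes of retinoic acid synthesis, breakdown and reception the median log2 fold change was -0.33 over 14 tested genes, and 3 of 14 were fitted above 0. Crabp1, a cellular retinoic acid-binding protein, was called lower, with 205, 260.0 and 345 normalized counts in TKO retinae and 506, 644 and 477 in DKO retinae (-1.01, standard error 0.196, adjusted p = 0.0134, edgeR). DESeq2 called 3 genes of this list lower, adding the synthesis gene Aldh1a3 and the breakdown gene Cyp26a1, which had log2 fold changes of -1.56 (adjusted p = 0.0602) and -1.03 (adjusted p = 0.0518) with edgeR. Rxra, a retinoid X receptor, was higher by the adjusted p alone (0.55, adjusted p = 0.0186). Aldh1a1, the most abundant gene of the list and a retinaldehyde dehydrogenase, had 800.4, 1292 and 1437 against 1651, 2076 and 1274 normalized counts, with overlap (-0.50, adjusted p = 0.172), and Rxrb did not pass (-0.0059, adjusted p = 0.973). Among the opsin genes, Opn1mw, the middle-wavelength cone opsin, had 1927, 1450.3 and 562 normalized counts in TKO retinae against 296, 475 and 850 in DKO retinae (1.28, adjusted p = 0.0990). The opsin list had a median of 0.66.

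**Figure D5:**
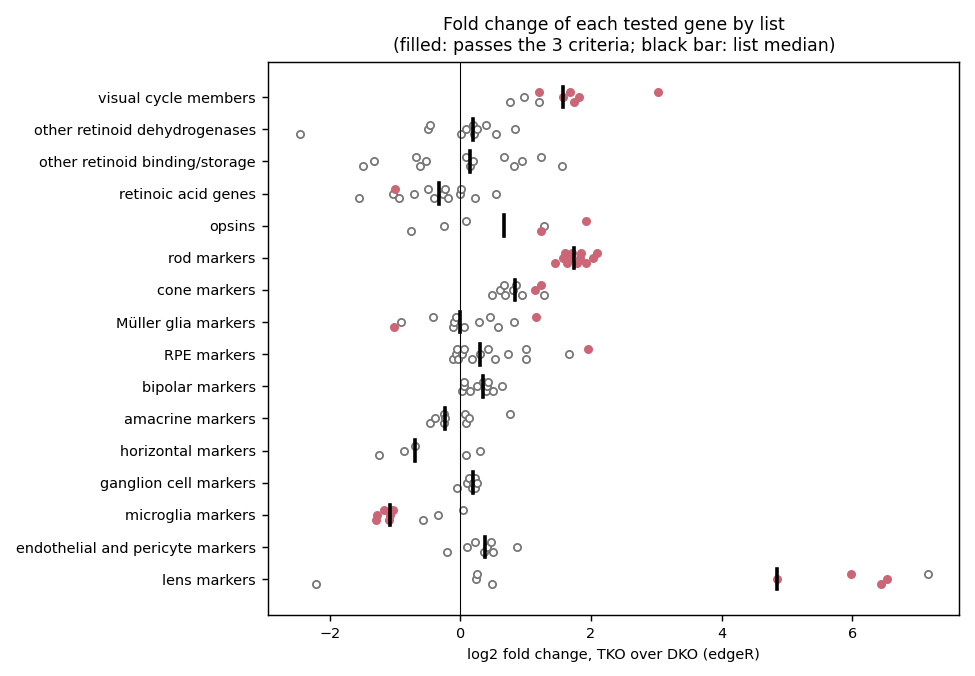
Log2 fold change of TKO over DKO retinae (edgeR) for each tested gene, by list, with genes that pass the 3 criteria filled and the list median as a black bar. The visual cycle genes (median 1.57) lie beside the rod markers (median 1.74), the other retinoid lists lie around 0 (medians from -0.33 to 0.19), and the lens markers reach the highest values, the highest being Lim2, which is at 0 in the DKO retinae and plotted at its fitted value.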

How the data were processed

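Gene counts came from 6 mouse retinae. The kit was TruSeq Stranded mRNA. Per the study's methods, the authors used STAR on GRCm38 and HTSeq, and deposited raw read counts for each gene, without normalization. The submitters' processing notes name TopHat2, featureCounts and mm10 instead, and the strand setting of the counting is not given in the sources used here, so genes that overlap on either strand are less certain. The alignment step in the study's methods allowed reads several alignments, and whether such reads were counted is not stated.

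Genes with a sum under 10 were removed. edgeR 4.0.16 (R 4.3.3; TMM, quasi-likelihood F test, Benjamini-Hochberg over 16904 genes) compared 3 TKO with 3 DKO retinae. The third criterion, a mean of at least 10, used DESeq2's size factors, and standard errors were derived from the log2 fold change and the F statistic (its size over the root of F). The test was checked on simulated counts. Values relative to markers used log2 of the normalized count plus 0.5. Positions and exon lengths come from GENCODE M21, in which 22708 of 24062 symbols matched 1 gene. Likeness used genes with a mean of at least 100 outside the lists. In the lists, 2 genes were matched by older symbols and 1 was not in the table.

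The lists covered visual cycle genes, other retinoid dehydrogenases, retinoid binding and storage, retinoic acid, opsins, and markers of rods, cones, Müller glia, RPE, lens, bipolar, amacrine, horizontal and ganglion cells, microglia and vessels. Named genes were the 9 members, the targeted genes, the called genes and 3 most abundant genes of each list, and the 3 nearest profiles of each called member, with a few named for their role after their values were seen. Some genes that this rule names are not reported here. The members and lists were chosen with earlier results of these data known. Alternatives were DESeq2 1.42.0, other scalings, filters and dispersions, a block for the replicate number, leaving out each retina, a pseudocount of 1 and summed marker counts.

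Between retinae of a genotype, the chi-square of the counts per degree of freedom was 8.61 to 25.3, above sampling noise. The study describes the RNA-seq data as coming from individual retinae of each genotype by their number, and the labels give no litter. The p-values therefore measure the spread between these retinae. The study used both sexes.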

Additional observations from a re-analysis of the deposited data

How the results depend on the processing

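All 9 genes kept a fitted log2 fold change above 0 under all 14 alternatives run for each. The number of visual cycle genes called higher ranged from 2 to 7 with 1 retina left out, those that passed the adjusted p alone from 3 to 8, and all genes called from 471 to 1500. It was 6 with DESeq2, with RLE, total count or upper quartile scaling and with either other filter, and 5 with robust dispersion. Scaling to total counts only moved the median of all genes to -0.17. With the replicate number as a block, 0 visual cycle genes were called higher, 0 passed the adjusted p alone (0.0566 for Rdh8 to 0.404 for Lrat), and 90 genes were called in all. These numbers gave no sign of pairing: with each group mean subtracted, TKO and DKO retinae of the same number correlated at 0.041, -0.044 and -0.12, and 1 of 3 TKO retinae correlated best with the DKO retina of the same number.

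Rbl1, which encodes p107, had a log2 fold change of 0.13 (adjusted p = 0.839, edgeR), of -0.036 with total counts only, and from -0.15 to 0.36 with 1 retina left out. Rb1 had 0.34 (adjusted p = 0.0388), 0.18 with total counts only (adjusted p = 0.176) and an adjusted p of 0.0714 with the block, and leaving out TKO retina 3 gave 0.0216 while leaving out any other retina gave 0.0747 to 0.129. Relative to rod markers, with 1 retina left out, Abca4 ranged from -0.11 to 0.062, Rbp3 from -0.22 (without DKO retina 2) to -0.046 (without DKO retina 3), Rdh8 from -0.17 to 0.0041 and Rdh12 from -0.011 to 0.071, and with summed marker counts Rdh12 was at -0.010. The cause of these changes was not tested. Low counts limit Rpe65, Lrat, Rdh5 and Stra6, and 3 retinae against 3 cannot give an exact p under 0.1.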

Other observations

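Other cell types of the retina gave values of their own. Microglia markers, which are genes of the resident immune cells, were lower in TKO retinae in 6 of 9 cases (Aif1, Cx3cr1, Csf1r, C1qa, C1qb and C1qc, log2 fold changes from -1.29 to -1.03, edgeR), and the list summed to 1820, 2359 and 3246 normalized counts in TKO retinae and 4845, 5762 and 3820 in DKO retinae. TKO retina 3 and DKO retina 3 were again the closest, here with TKO retina 3 the highest of its group. Bipolar, amacrine, horizontal and ganglion cell markers had 0 genes called in either direction with edgeR, with median log2 fold changes of 0.35, -0.23, -0.70 and 0.19. Endothelial and pericyte markers had 0 called and a median of 0.38. By the adjusted p alone, 2 bipolar, 1 horizontal and 1 endothelial or pericyte marker were higher, and 0 amacrine and 0 ganglion cell markers passed. At an unadjusted p of at most 0.05, 4 bipolar, 1 amacrine, 1 horizontal, 1 ganglion cell and 1 endothelial or pericyte marker were higher, and 2 amacrine and 2 horizontal markers were lower. DESeq2 called 1 gene of these lists, the horizontal marker Onecut1, which was lower.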
